A study of Mus musculus with 18 samples.

Results

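Colon from mice with TNBS colitis given ISM012-042 was compared with colon from sham mice, using 12 of the 18 RNA sequencing libraries of the series. The 6 columns of the expression table named for ISM012-042 on day 2 formed one group and the 6 columns named for sham on day 2 the other. Sham mice had no colitis. In the ISM012-042 mice, colitis had been induced with trinitrobenzene sulfonic acid (TNBS), a hapten that provokes acute inflammation of the colon, and tissue was taken on day 2 after induction. By the title of the series ISM012-042 is a PHD inhibitor that is restricted to the gut, PHD being the prolyl hydroxylase domain enzymes. A further 6 libraries came from mice with TNBS colitis given vehicle. They enter the gene filter and the shared estimate of spread in the fit, and so affect the SE and p-values given here. Their values are also set beside the main comparison. The labels do not state strain, genotype, sex, age, dose or route, or what the sham mice received. Replicates are numbered without a statement that each was its own mouse, so p-values reflect only how these samples vary, which may be technical. Colitis and compound were both present in one group and both absent in the other, so their parts in a difference cannot be told apart in this comparison.

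Interferons of type I and of the lambda type act through receptors that pass the signal to transcription factors such as STAT2 and IRF9. These factors bind a short element in the promoters of interferon-stimulated genes, whose products sense foreign nucleic acid, block translation or modify other proteins with ISG15. In the healthy gut a basal level of this program depends on the microbiota. Prolyl hydroxylases use oxygen to mark the alpha subunits of hypoxia-inducible factor for degradation, and inhibitors of these enzymes raise the targets of the factor. TNBS colitis is known for damage to the surface epithelium, entry of neutrophils and local synthesis of acute-phase proteins.

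Total RNA of colon tissue was sequenced. Values are TPM, transcript abundances normalised for gene length and library size, from which the depth cannot be read, so counting error could not be estimated. At least 1 TPM was reached by 13120 to 14632 genes in the 12 libraries. The intestinal epithelial genes Cdx2 and Cdh1 were present in all of them, with medians of 118 and 275 TPM under ISM012-042 and 58.9 and 357 TPM in sham, as were the smooth muscle gene Myh11 (207 and 308 TPM) and the colonocyte gene Car1 (3150 and 3140 TPM). The transcripts of the mitochondrial genome took 31.3 ± 6.93% of TPM under ISM012-042 and 33.8 ± 4.94% in sham (SD, n = 6 each, exact two-sided permutation p = 0.506). Hoxb13, a gene of the distal colon, ranged from 0.329 to 219 TPM under ISM012-042 and from 9.05 to 288 TPM in sham, and the labels do not state where along the colon the tissue was cut. ISM012-042 replicate 2 stood apart from its group, with the highest neutrophil score at 6.98 (the mean log2(TPM + 1) of 14 marker genes) where the other 5 libraries lay between 2.22 and 3.53, and with the lowest mitochondrial share at 20.1%. In bulk tissue, fewer cells of a type and less RNA per cell cannot be told apart.

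The promoters of interferon-stimulated genes are shown first, because 40 of the 123 fallen genes belonged to the interferon lists. The 250 bases before the start of 4 fallen genes follow, those with the smallest p among the interferon genes whose window held the element, from RefSeq on GRCm38.p6, written on the strand of the gene. Capitals mark each match to the core of the interferon-stimulated response element, searched as GAAA, any 2 bases, GAAA on both strands with overlapping matches counted, so that TTTC, any 2 bases, TTTC is the same element read on the other strand. Ifit1bl1 lies on the minus strand at chr19:34601969-34602218, Rsad2 on the minus strand at chr12:26456453-26456702, Ifit1 on the plus strand at chr19:34640639-34640888 and Isg15 on the minus strand at chr4:156200819-156201068.
Ifit1bl1: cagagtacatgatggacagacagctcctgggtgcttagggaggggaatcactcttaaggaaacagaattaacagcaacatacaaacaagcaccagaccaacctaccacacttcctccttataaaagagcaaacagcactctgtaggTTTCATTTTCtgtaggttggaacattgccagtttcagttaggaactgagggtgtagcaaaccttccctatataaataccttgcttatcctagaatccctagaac
Rsad2: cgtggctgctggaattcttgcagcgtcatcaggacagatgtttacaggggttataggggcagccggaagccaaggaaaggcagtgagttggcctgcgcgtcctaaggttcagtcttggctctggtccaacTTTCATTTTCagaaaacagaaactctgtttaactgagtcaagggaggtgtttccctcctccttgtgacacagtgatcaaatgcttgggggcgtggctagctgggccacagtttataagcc
Ifit1: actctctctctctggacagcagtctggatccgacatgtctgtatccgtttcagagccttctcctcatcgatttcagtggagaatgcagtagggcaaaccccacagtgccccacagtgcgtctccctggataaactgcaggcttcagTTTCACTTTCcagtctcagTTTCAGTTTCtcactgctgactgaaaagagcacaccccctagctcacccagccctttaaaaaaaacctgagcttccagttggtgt
Isg15: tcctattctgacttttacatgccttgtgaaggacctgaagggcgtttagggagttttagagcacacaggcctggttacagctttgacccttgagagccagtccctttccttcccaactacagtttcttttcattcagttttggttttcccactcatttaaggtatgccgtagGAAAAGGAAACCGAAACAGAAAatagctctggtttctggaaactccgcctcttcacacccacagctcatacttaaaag
Ifit1bl1 and Rsad2 held 1 match each, Ifit1 held 2 and Isg15 held 3 that overlap, and the match farthest from the start began 104, 120, 104 and 78 bases before it. Irf9, Oasl2 and Oasl1, which had p of the same order, held no match in their windows, and for Rtp4 the table has no window. Of the 40 interferon list genes that fell, 30 had a promoter in the RefSeq table, of 300 bases (250 before and 50 after the start), and 18 of these held the core (60.0%). Among the interferon list genes that did not pass, 14 of 34 held it (41.2%). For all tested genes the share was 405 of 10586 (3.83%), for fallen genes outside the interferon lists 8 of 63 (12.7%) and for risen genes 1 of 53 (1.89%). The core was thus more frequent in the promoters of interferon list genes whether or not they passed. A match describes the letters of the window, not a site in use. The C/EBP core (TTGC, any 2 bases, AA, on both strands) was in 7 of 53 promoters of risen genes (13.2%) against 10.4% of all tested genes, and the NF-kB core (GGGA, any 2 bases, TTCC) in 1 of 53 (1.89%) against 1.79%.

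Of 14129 genes tested with limma on log2(TPM + 1), 77 were higher under ISM012-042 than in sham (0.545%) and 123 were lower (0.871%) at an adjusted p under 0.05, together 200 genes (1.42%). Fold changes are given as differences on that scale with their SE, which understates the change of low genes. Of the fallen genes 95 differed by over 2-fold, 38 by over 4-fold and 20 by over 8-fold, while of the risen genes 30 differed by over 2-fold and 3 by over 8-fold. The larger changes were thus mostly downward. The median over all genes was 0.21, with 77.1% of genes positive, and median-ratio scaling brought that median to 0.02. Under that scaling 18.1% of the calls were higher (137 of them, against 618 lower) instead of 38.5%. Genes named below as not passing that passed under that scaling were, as lower, Ube2l6, Ddx58, Irf1, Ifngr1, Gbp2, Cxcl10, Slc26a3, Tff3, Muc3, Tjp1, Cldn23, Clps and Hk2, and, as higher, Saa3, Cp, S100a8, S100a9, Retnlg, Reg3b and Cd163. Genes named below as passing that did not pass under that scaling were Apod, Fkbp5, Kcnq1 and Ucp2, all called higher. Leaving out the mitochondrial genes gave 745 higher and 387 lower genes, 65.8% of them higher. The counts also rested on single libraries. Without sham replicate 1, 2, 3, 4 or 5 the higher genes numbered 40, 22, 29, 51 and 24, and without ISM012-042 replicate 1, 2, 4 or 5 they numbered 14, 38, 25 and 31. The lower genes numbered 69 and 70 without sham replicate 2 or 5, and 62, 75 and 72 without ISM012-042 replicate 1, 4 or 5. Among the 4 sham and 4 ISM012-042 libraries with log2 Hoxb13 above 5, 17 genes were higher and 41 lower, in an alternative chosen after seeing the data.

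**Figure D1:**
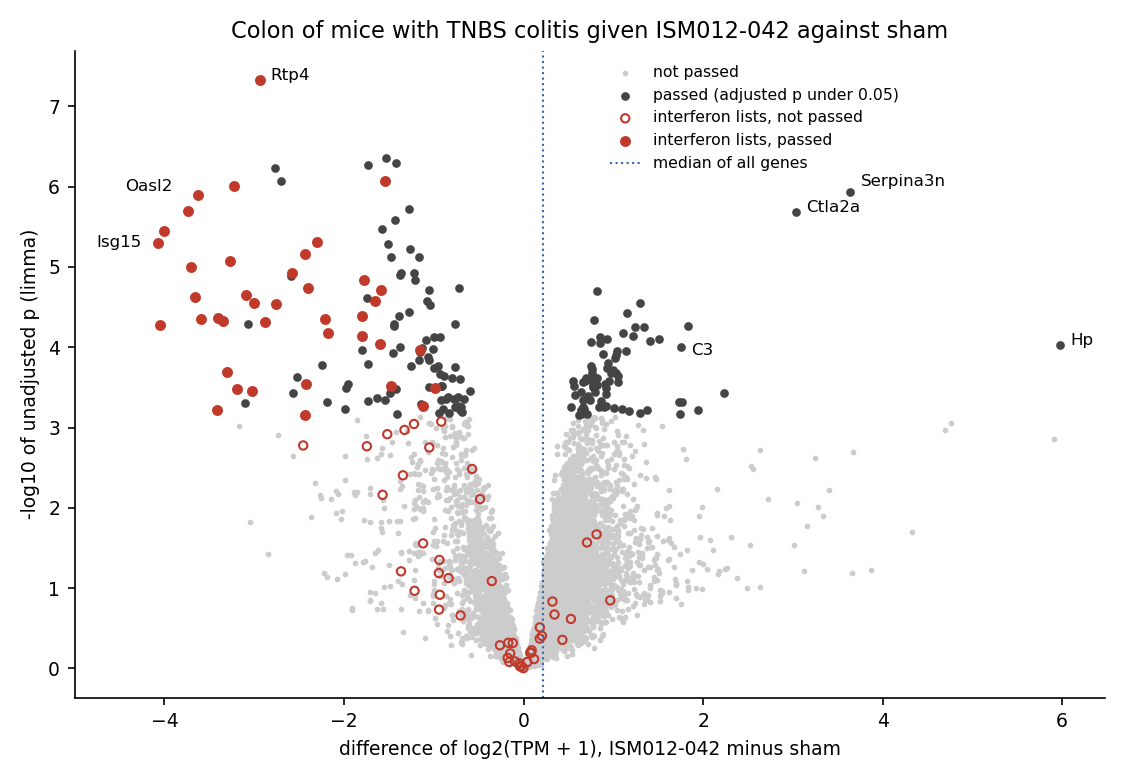
Each point is 1 of 14129 genes, with the difference of log2(TPM + 1) between ISM012-042 and sham on the horizontal axis and -log10 of the unadjusted limma p on the vertical axis. Red points are the 88 tested genes of the interferon lists, filled where they passed; 40 passed, all on the left, and the dotted line marks the median of all genes at 0.21.

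Interferon-stimulated genes fell together. Of 88 tested members of 7 interferon lists, 40 were lower and 0 higher (45.5% lower, against 0.871% of all genes), 53 lower and 2 higher at an unadjusted p under 0.05, and the median difference was -1.27 against 0.21 for all genes. For 28 of the 88, all ISM012-042 libraries lay below all sham libraries, which held for 1.05% of all genes, and for 2 they lay above, which held for 3.80%. The spread was mostly on the sham side. The mean log2(TPM + 1) of the lists was 5.59, 6.14, 4.36, 4.17, 5.76 and 5.03 in sham replicates 1 to 6 and 3.36, 4.29, 4.13, 3.86, 3.35 and 3.43 in ISM012-042 replicates 1 to 6. Sham replicates 3 and 4 were low, and ISM012-042 replicate 2 lay between them. Leaving out any 1 library gave between 29 and 44 lower genes of the 88, and leaving out ISM012-042 replicate 2 gave 32. In the libraries with log2 Hoxb13 above 5, which hold sham replicates 2 to 5 and so both low ones, 2 of 88 passed, with 65 negative and a median of -1.06. The lists were drawn up with earlier results of these data known, so their direction is a description.

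The interferon genes themselves were at or near the floor of the table. These were looked up after the values of their targets had been seen. Of 18 type I interferon genes 15 were listed at 0 in all 18 libraries, and Ifnb1, which encodes interferon beta, was above 0 only in sham replicate 2, at 0.164 TPM. The lambda interferon gene Ifnl2 was listed at 0.311, 1.64, 0, 0, 0.223 and 0.537 TPM in sham replicates 1 to 6 and at 0 in every ISM012-042 library. Its close copy Ifnl3 was listed at 1.18, 2.46, 0, 0, 0.556 and 0 TPM in sham and at 0.218 TPM in ISM012-042 replicate 1 alone. The sham libraries above 0 for either gene were replicates 1, 2, 5 and 6, and replicates 3 and 4, low for the interferon lists, were at 0 for both. In vehicle, Ifnl2 was above 0 only in replicate 5 (0.484 TPM) and Ifnl3 only in replicate 4 (0.401 TPM). The list means of these libraries were 3.725 and 3.731, at the low end of the vehicle range of 3.725 to 4.789. ISM012-042 replicate 1, above 0 for Ifnl3, had 3.36, while replicates 2 and 3, at 0 for both, had 4.29 and 4.13. Whether the lambda genes go with the lists was not tested. Ifng stayed at or under 0.220 TPM in the ISM012-042 and sham libraries. These levels are too low for the filter and were not tested, and the 2 lambda genes are similar enough for the upstream counting to have split their reads.

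Of 9 tested genes of the ISG15 conjugation list, which also holds Parp9, Parp14 and Dtx3l, 8 fell, with a median of -1.78. Isg15 (chromosome 4, 156199424 to 156200818 on GRCm38.p6, like all gene positions here), the ubiquitin-like protein that is joined to other proteins, ranged from 8.35 to 34.5 TPM with a median of 15.4 under ISM012-042 and from 53.2 to 1267 TPM with a median of 435 in sham. The ISM012-042 libraries all lay below the lowest sham library, and the lowest sham libraries were replicates 3 and 4, at 75.3 and 53.2 TPM. The difference was -4.07 ± 0.63 (adjusted p = 0.00380). Usp18, which removes ISG15 and dampens the interferon receptor, ranged from 1.13 to 4.63 TPM (median 1.92) against 5.23 to 120 TPM (median 63.0), at -3.40 ± 0.63. Herc6, the main ISG15 ligase of the mouse, fell by 2.58 ± 0.43, and the activating enzyme Uba7 by 1.16 ± 0.24. The ADP-ribosyltransferase genes Parp9 and Parp14 and their partner Dtx3l fell by 1.66 ± 0.30, 1.78 ± 0.31 and 1.80 ± 0.34, with groups that did not overlap, and Trim25 fell by 0.99 ± 0.22 with groups that did. The conjugating enzyme Ube2l6 stood at -1.52 ± 0.40 without passing (adjusted p = 0.0634).

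Of 22 tested IFIT, MX and other antiviral effectors 14 fell, with a median of -2.91, the lowest of all 56 lists. Rtp4 (chromosome 16, 23520219 to 23614222), an interferon-induced chaperone of membrane receptors, had the smallest p of the comparison. Its levels ran from 6.28 to 19.5 TPM (median 10.7) under ISM012-042 and from 45.04 to 186 TPM (median 102) in sham, a difference of -2.93 ± 0.33 (adjusted p = 0.000666). The groups were apart by more than 2-fold at their nearest libraries. Ifit1 (chromosome 19, 34640889 to 34650009), which binds foreign RNA caps, ran from 5.11 to 19.2 TPM (median 6.64) against 29.0 to 541 TPM (median 213), at -4.01 ± 0.61 (adjusted p = 0.00316). Rsad2 (chromosome 12, 26442743 to 26456452), which encodes viperin, ran from 1.82 to 3.35 TPM (median 2.74) against 12.8 to 154 TPM (median 60.1), at -3.74 ± 0.54 (adjusted p = 0.00222). For both genes every ISM012-042 library lay below every sham library. Ifit1bl1, Mx2, Apol9a, Apol9b and Cmpk2, the neighbour of Rsad2 that makes nucleotides, fell by 2.88 to 3.71 with no overlap. Ifit2, Ifit3, Ifit3b, Ifi44, Mx1 and Eif2ak2, which encodes the kinase PKR, fell by 1.12 to 3.41 with overlapping groups, where sham replicate 3 or 4 lay within the ISM012-042 range. Of the membrane proteins of the IFITM family, Ifitm1, Ifitm2 and Ifitm3 stood at 0.97, 0.71 and -0.03 without passing. The IFIT and Apol9 genes are families of similar copies, and the upstream counting, of which no description is at hand, could have split their reads.

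**Figure D2:**
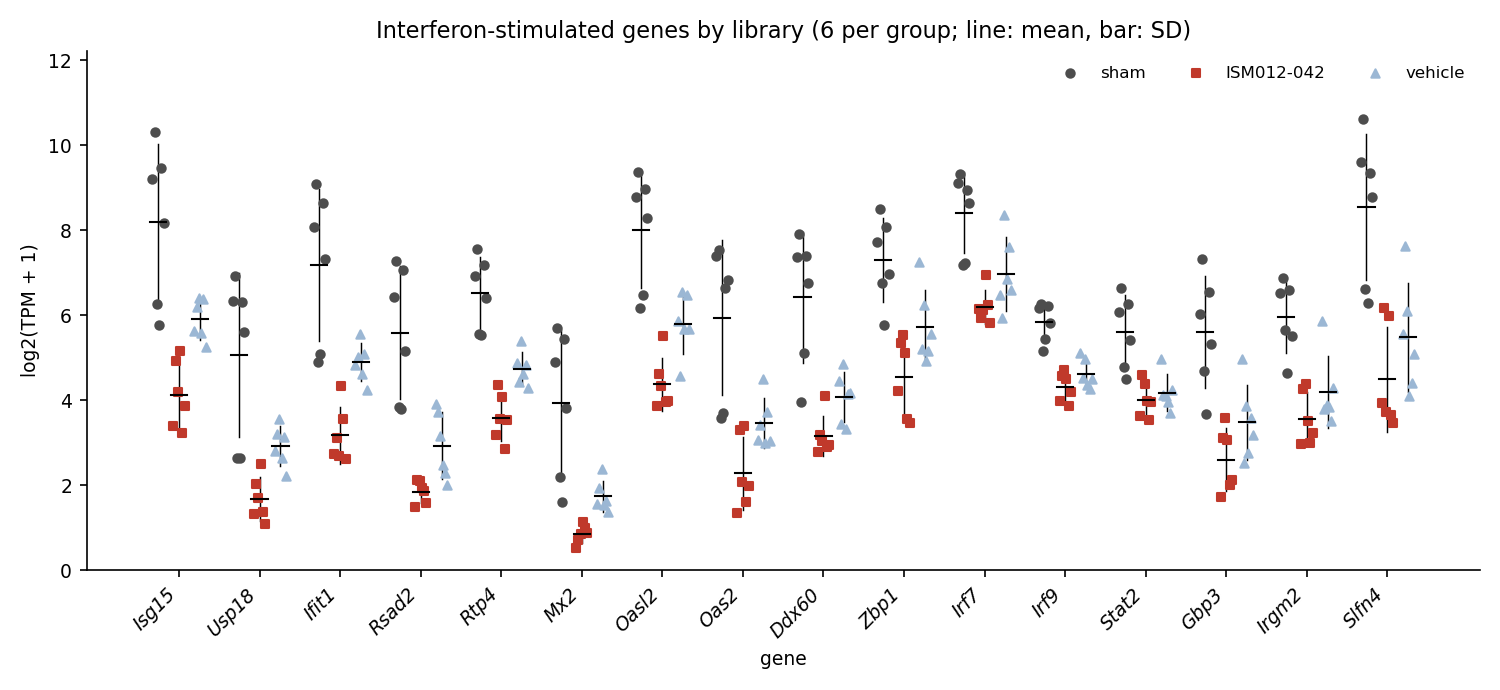
Each point is 1 library, with log2(TPM + 1) on the vertical axis and 16 interferon-stimulated genes on the horizontal axis, for sham, ISM012-042 and vehicle (6 libraries each). Lines are means and bars SD. The ISM012-042 means are lowest, with libraries that overlap those of vehicle, and the spread is mostly widest in sham, where replicates 3 and 4 are low.

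Of 7 tested genes of the OAS family, which make the short adenylates that activate RNase L or are relatives without that activity, 5 fell and all 7 were negative, with a median of -2.30. Oasl2 (chromosome 5, 114896926 to 114912245) ran from 13.6 to 44.8 TPM (median 16.9) under ISM012-042 and from 70.7 to 657 TPM (median 375) in sham, at -3.63 ± 0.51 (adjusted p = 0.00181), with no overlap. Oasl1, a brake on the translation of Irf7, and Oas2 fell by 2.30 ± 0.36 and 3.66 ± 0.65, also with no overlap. Oas3 and Oas1b fell by 3.35 ± 0.63 and 1.48 ± 0.34 with groups that overlapped. These genes lie in clusters of similar copies on chromosome 5.

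Of 10 nucleic acid sensors and adaptors 4 fell, with a median of -0.69. The RNA sensor gene Ifih1, which encodes MDA5, ran from 23.8 to 32.4 TPM (median 27.9) against 35.3 to 153 TPM (median 97.8) and fell by 1.59 ± 0.28. Its regulator Dhx58 fell by 2.43 ± 0.39 and Zbp1, a sensor of left-handed nucleic acid, by 2.76 ± 0.50, all 3 with groups apart. Ddx60 fell by 3.26 ± 0.53 with 1 overlap, where ISM012-042 replicate 4 at 16.02 TPM lay above the lowest sham library at 14.6 TPM. Ddx58, which encodes RIG-I, stood at -1.33 ± 0.34 without passing (adjusted p = 0.0595).

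Among 18 receptors, STATs and IRFs 3 fell, with a median of -0.06. These were the DNA-binding partner Irf9, from a median of 63.0 TPM in sham to 19.4 TPM (-1.54 ± 0.21, adjusted p = 0.00172), Irf7, the factor that amplifies interferon synthesis, from 447 to 69.0 TPM (-2.21 ± 0.42), and Stat2, from 53.9 to 14.7 TPM (-1.60 ± 0.32). The groups did not overlap for Irf9 and Irf7 and did for Stat2. Irf1 did not pass, at -1.05 ± 0.29 (adjusted p = 0.0759). The receptor genes Ifnar1, Ifnar2 and Ifngr1 stood at 0.32 ± 0.21, 0.81 ± 0.32 and -0.48 ± 0.16 (adjusted p of 0.364, 0.187 and 0.135). The 3 fallen members are themselves interferon-stimulated, and the receptors and kinases of the list, Jak1 and Tyk2 among them, did not pass.

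Of 15 guanylate-binding proteins and immunity-related GTPases, which attack the vacuoles of intracellular pathogens and answer to interferon gamma as well, 5 fell and all 15 were negative, with a median of -1.21. Gbp3 ran from 2.31 to 10.98 TPM (median 5.34) against 11.9 to 160 TPM (median 51.9) and fell by 3.003 ± 0.54. Gbp7, Irgm1 and Irgm2 fell by 2.17 ± 0.42, 1.80 ± 0.36 and 2.40 ± 0.42, without overlap like Gbp3, and Igtp by 2.42 ± 0.54 with overlap. Gbp2 stood at -1.57 ± 0.51 without passing. Of 7 Schlafen genes Slfn4 alone fell, from a median of 544 TPM in sham to 13.3 TPM (-4.05 ± 0.77, adjusted p = 0.0123, no overlap), and Slfn2 and Slfn5 stood at -1.36 ± 0.68 and -1.12 ± 0.47. Of 19 MHC class I and immunoproteasome genes only H2-Q1 fell, by 1.22 ± 0.21, while 17 were negative and 10 were lower at an unadjusted p under 0.05, with a median of -0.46. All 10 MHC class II genes were positive, with a median of 0.58, and 0 passed (1 higher at an unadjusted p under 0.05). Genes outside the lists that were chosen after their values had been seen included the interferon-induced Xaf1 at -2.70 ± 0.37, Tmem140 at -1.53 ± 0.20 and Parp12 at -1.57 ± 0.24, each with no overlap between groups. Also outside the lists, Sp100 fell by 1.98 ± 0.45, Rnf213 by 1.73 ± 0.41, the death ligand gene Tnfsf10 by 1.40 ± 0.35 and the RNA-editing gene Adar by 0.93 ± 0.20.

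The vehicle libraries, which share the sham controls with this comparison, give the level in colitis without the compound. For the same 88 genes vehicle against sham had 36 lower and 0 higher, with a median of -1.13, where 4.13% of all genes were lower and 0.326% higher. Isg15 had a median of 60.1 TPM in vehicle and stood at -2.28 there, Ifit1 29.5 TPM and -2.29, Rsad2 6.27 TPM and -2.66, and Rtp4 25.5 TPM and -1.79. These 4 medians lay between those of ISM012-042 and sham. Between ISM012-042 and vehicle 0 of 14129 genes passed in limma (smallest adjusted p = 0.233, 2688 at an unadjusted p under 0.05), so the lower level under the compound than under vehicle was not called for any gene.

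Some acute-phase genes were higher under ISM012-042. Of 13 tested, 3 rose and 0 fell (0.545% of all genes rose), with 10 positive and 3 negative, a median of 1.02, and 6 higher and 1 lower at an unadjusted p under 0.05. The summed level of the list overlapped and had the lower median under ISM012-042, at 3716 TPM (1932 to 5028) against 5046 TPM (2205 to 9443) in sham. Among the negative members, Saa1 stood at -0.97 ± 0.40 and Saa2 at -0.35 ± 0.32. Hp (chromosome 8, 109575128 to 109579172), which encodes haptoglobin, the plasma protein that binds free haemoglobin, was at 393, 1131, 14.7, 518, 644 and 34.9 TPM in ISM012-042 replicates 1 to 6 and at 1.27, 13.7, 0.185, 0.149, 0.420 and 20.4 TPM in sham replicates 1 to 6. The groups overlapped by ISM012-042 replicate 3, which lay below sham replicate 6, and the difference was the largest of the risen genes at 5.97 ± 1.19 (adjusted p = 0.0166). Serpina3n (chromosome 12, 104406646 to 104414334), an inhibitor of serine proteases from a family of similar copies, ran from 51.9 to 436 TPM (median 98.3) against 3.65 to 16.6 TPM (median 6.90), at 3.64 ± 0.51 (adjusted p = 0.00181). The complement gene C3 ran from 117 to 273 TPM (median 162) against 20.01 to 85.0 TPM (median 52.8), at 1.75 ± 0.36 (adjusted p = 0.0172). In both genes every ISM012-042 library lay above every sham library. Saa3, Lrg1 and Cp did not pass, at 3.66 ± 1.01, 2.56 ± 0.75 and 1.02 ± 0.29 (adjusted p of 0.0811, 0.0975 and 0.0816). In vehicle against sham, with the same controls, Hp stood at 5.45, Serpina3n at 2.93 and C3 at 1.21.

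Neutrophil markers were higher in every ISM012-042 library for some genes, but 0 of 14 passed in limma, with 5 higher at an unadjusted p under 0.05 and a median of 1.54. In vehicle against sham, with the same controls, 5 of the 14 passed as higher and 0 as lower, with a median of 2.27. Of all genes 0.326% were higher there. S100a9, a subunit of the neutrophil protein calprotectin, was at 86.2, 3019, 33.8, 56.0, 69.3 and 14.2 TPM in ISM012-042 replicates 1 to 6 and between 0.276 and 8.13 TPM in sham. The groups did not overlap, replicate 2 lay far above the other 5, and the difference of 4.76 ± 1.19 missed the threshold (adjusted p = 0.0554). S100a8 and Retnlg behaved alike, at 4.69 ± 1.20 and 3.25 ± 0.92 with no overlap (adjusted p of 0.0596 and 0.0869). Of the 14 markers 2 were negative, Cd177 at -0.26 ± 0.37 and Ly6g at -1.64 ± 1.18. Ly6g had a median of 415 TPM in sham, and the summed level of the markers overlapped, from 181 to 7800 TPM under ISM012-042 and from 127 to 761 TPM in sham. The antimicrobial lectin genes Reg3b and Reg3g stood at 5.91 ± 1.56 and 3.33 ± 1.20 (adjusted p of 0.0675 and 0.157), and 0 of 17 genes of that list passed (4 higher at an unadjusted p under 0.05). Under median-ratio scaling S100a8, S100a9, Retnlg and Reg3b passed as higher, at adjusted p of 0.0292, 0.0256, 0.0408 and 0.0498, as did the acute-phase genes Saa3 and Cp at 0.0482 and 0.0373. Among 22 CC and CXCR3 chemokines Ccl6, a macrophage chemokine, rose by 0.89 ± 0.22, and Cxcl10, an interferon-induced chemokine, stood at -2.73 ± 0.71 without passing (adjusted p = 0.0635, and 0.0213 under median-ratio scaling). Of 9 inflammatory cytokine genes 0 passed (2 higher at an unadjusted p under 0.05), with Il1b at 1.83 ± 1.04.

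**Figure D3:**
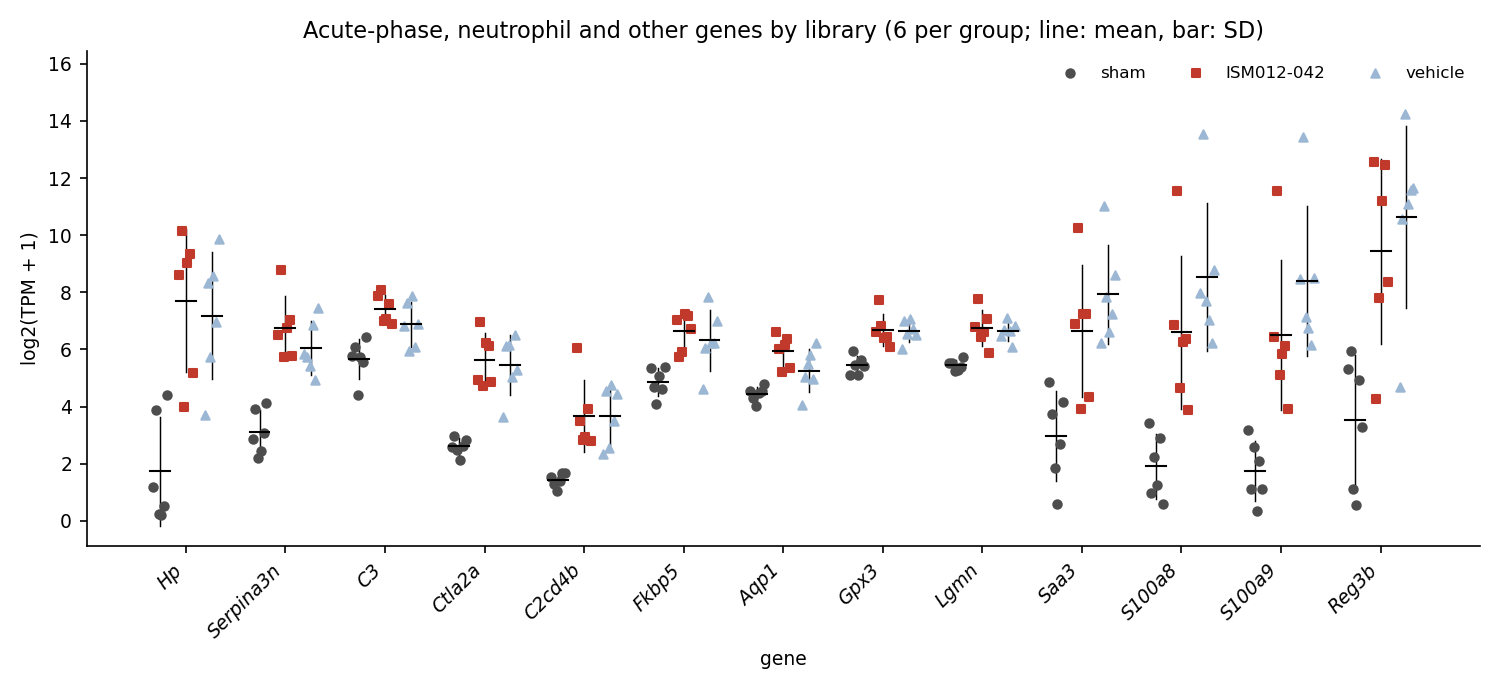
Each point is 1 library, with log2(TPM + 1) on the vertical axis and 13 acute-phase, neutrophil and other genes on the horizontal axis, for sham, ISM012-042 and vehicle (6 libraries each; lines are means, bars SD). Serpina3n, C3 and Ctla2a separate ISM012-042 from sham, while Hp overlaps and the 3019 TPM of S100a9 in ISM012-042 replicate 2 stands above its group.

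The other risen genes of largest difference held no single theme among the lists. Ctla2a (chromosome 13, 60934155 to 60936625), an inhibitor of cysteine proteases, ran from 25.1 to 123 TPM (median 48.9) against 3.36 to 6.89 TPM (median 5.08), at 3.03 ± 0.44 (adjusted p = 0.00222). The nearest libraries of its groups were over 3-fold apart. C2cd4b, a nuclear protein induced in endothelium by cytokines, rose by 2.24 ± 0.51, and the lipocalin gene Apod and Fam43a by 1.94 ± 0.47 and 1.83 ± 0.35. Fkbp5, a chaperone partner that glucocorticoids induce, ran from 51.8 to 150.1 TPM (median 116) against 16.2 to 40.9 TPM (median 28.6), at 1.76 ± 0.42 (adjusted p = 0.0407), and was 1 of 11 glucocorticoid targets to pass (5 higher at an unadjusted p under 0.05, median 0.51). Under median-ratio scaling Apod and Fkbp5 did not pass in limma (adjusted p of 0.0673 and 0.0668). Acot1, an acyl-CoA thioesterase, Aqp1, the water channel of endothelium and erythrocytes, and Ddah1, which breaks down an inhibitor of nitric oxide synthase, rose by 1.74 ± 0.41, 1.51 ± 0.30 and 1.37 ± 0.33. Gpx3, a secreted glutathione peroxidase, and Lgmn, a lysosomal protease of macrophages, were chosen after their values had been seen and rose by 1.24 ± 0.24 and 1.30 ± 0.24 with no overlap. Levels of markers of other cell types are given beside these genes, where 77.1% of all genes were positive and the median was 0.21. The 18 endothelial markers were all positive, with a median of 0.67 and 11 higher at an unadjusted p under 0.05, and their summed level ran from 115 to 615 TPM under ISM012-042 against 67.6 to 112 TPM in sham. Of 18 monocyte and macrophage markers 17 were positive (median 0.86), with sums from 395 to 1968 TPM against 206 to 510 TPM. All 12 adipocyte markers were positive (median 2.47), with sums from 325 to 5747 TPM against 60.2 to 5002 TPM. Across these 3 lists 0 genes passed in limma, and the part of these cells in the risen genes was not tested. Esam, Cdh5 and Cd163 had groups that did not overlap, at 1.01 ± 0.27, 1.12 ± 0.34 and 1.81 ± 0.52. Their lowest ISM012-042 and highest sham libraries were close, at 7.14 and 7.13, 4.68 and 4.34, and 1.53 and 1.39 TPM. Over all markers of other cell types, 6 of 136 had every ISM012-042 library above every sham library, which held for 3.80% of all genes. For Cdh5 ISM012-042 replicate 2 stood at 35.9 TPM where the other 5 lay between 4.68 and 7.09 TPM.

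Some genes of the surface colonocyte were lower. Of 142 tested genes of the epithelial lists 3 fell (2.11%) and 1 rose, against 0.871% and 0.545% of all genes. At an unadjusted p under 0.05, 17 of them were higher and 19 lower, and their median was 0.009. In vehicle against sham, with the same controls, 1 of the 142 passed as higher and 21 as lower, with a median of -0.31. Of all genes 4.13% were lower there. Of 22 genes of water, chloride, bicarbonate and phosphate transport 2 fell and 1 rose, with a median of -0.35, the risen one being Aqp1. Aqp8 (chromosome 7, 123462294 to 123468003), the water channel of surface colonocytes, was at 28.6, 197, 176, 124, 15.4 and 354 TPM in ISM012-042 replicates 1 to 6 and between 680 and 1117 TPM in sham. All ISM012-042 libraries were low and their spread was over 20-fold, so the difference of -3.10 ± 0.73 passed narrowly (adjusted p = 0.0418) and in 15 of 28 alternatives. Car4 (chromosome 11, 84957754 to 84966054), the membrane carbonic anhydrase, ran from 306 to 658 TPM (median 565) against 821 to 2048 TPM (median 1470), at -1.38 ± 0.24 (adjusted p = 0.00610), and passed in all 28. In vehicle against sham Aqp8 and Car4 stood at -3.86 and -1.51. Slc26a3, the chloride-bicarbonate exchanger, stood at -1.85 ± 0.46 without passing (adjusted p = 0.0526), with medians of 263 and 817 TPM. Of 19 genes of the brush border list, which holds the colonocyte gene Plac8, 16 were negative (median -0.24). Plac8 fell by 0.92 ± 0.21, and no other member passed. Lypd8, a surface protein that keeps flagellated bacteria off the epithelium, and Sycn, a secretory granule protein best known from the pancreas, were chosen after their values had been seen and fell by 0.94 ± 0.23 and 2.24 ± 0.47. Lypd8 passed narrowly in limma (adjusted p = 0.0485) and in 10 of 28 alternatives. Sycn was at 181 to 1647 TPM under ISM012-042 against 1162 to 3434 TPM in sham, with overlap. The pancreas and liver list, a check on tissue other than colon, had 0 of 5 tested genes passing (3 lower at an unadjusted p under 0.05), with Clps at -1.29 ± 0.35 and a summed level of 19.0 to 155 TPM against 95.2 to 288 TPM, and its part in the fall of Sycn was not tested.

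Mucus and junction genes showed no call. Of 17 goblet cell and mucus genes 0 passed (3 higher and 2 lower at an unadjusted p under 0.05), with a median of -0.08, and Muc2, the main secreted mucin, ran from 954 to 2594 TPM against 443 to 2213 TPM, at 0.57 ± 0.37. Tff3 and the membrane mucin Muc3 stood at -0.66 ± 0.24 and -1.01 ± 0.27 (adjusted p of 0.160 and 0.0712). Of 24 junction genes 0 passed (1 higher and 2 lower at an unadjusted p under 0.05), with a median of -0.003 against 0.21 for all genes. Ocln and Tjp1, which encode occludin and ZO-1, stood at -0.46 ± 0.24 and -0.33 ± 0.22 (adjusted p of 0.277 and 0.377), while Cldn23 was at -0.62 ± 0.16 and the leaky claudin Cldn2 at 1.35 ± 0.36 (adjusted p of 0.0565 and 0.0722). Under median-ratio scaling Tjp1, Cldn23, Tff3 and Muc3 passed as lower, at adjusted p of 0.0273, 0.0215, 0.0284 and 0.00840. In vehicle against sham, with the same controls, 4 of 24 junction genes and 3 of 17 goblet cell genes were lower. In that comparison 4.13% of all genes were lower, against 0.871% under ISM012-042. Ocln, Tff3 and Muc3 stood at -0.87, -0.86 and -1.39 in vehicle against sham. The median over all genes was -0.07 there, against 0.21 under ISM012-042.

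**Figure D4:**
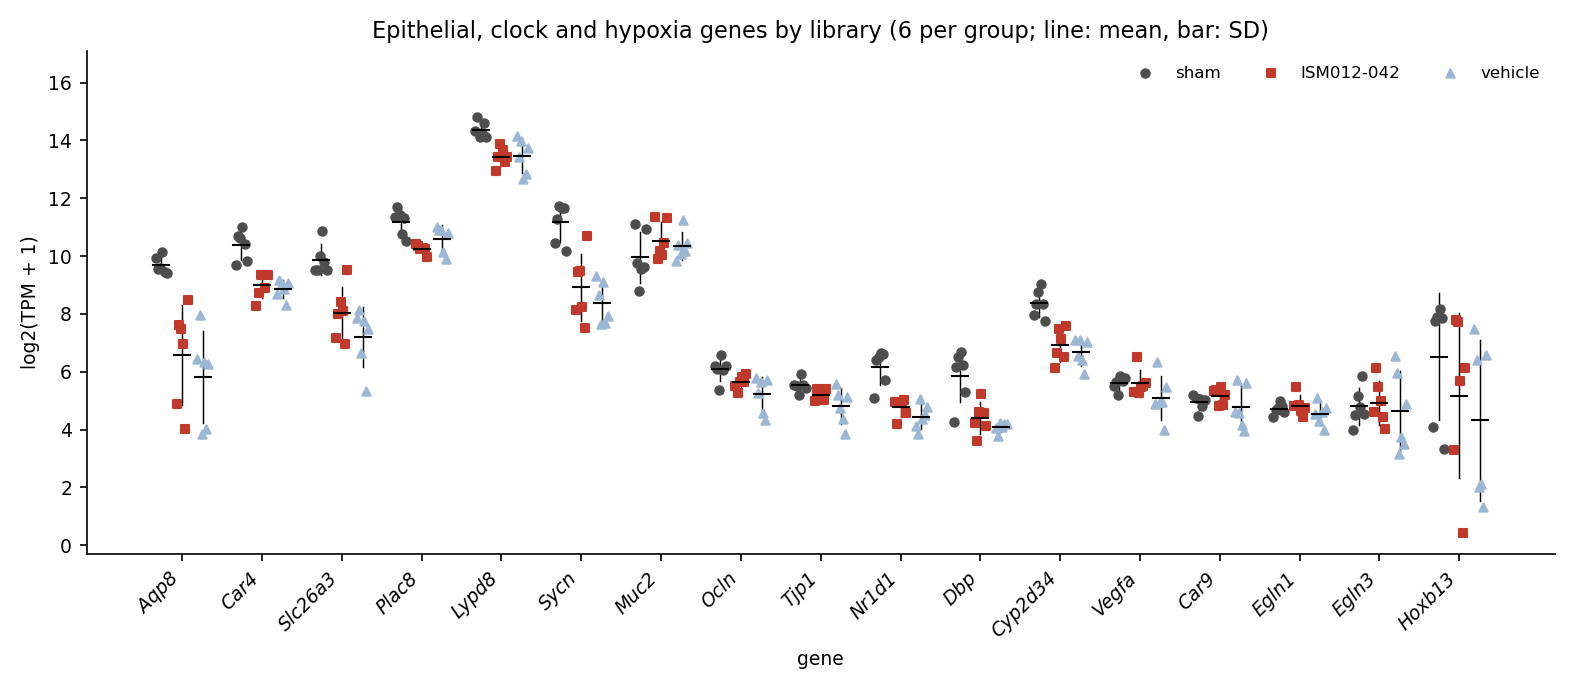
Each point is 1 library, with log2(TPM + 1) on the vertical axis and 17 epithelial, clock and hypoxia genes on the horizontal axis, for sham, ISM012-042 and vehicle (6 libraries each; lines are means, bars SD). Aqp8 and Car4 are lower under ISM012-042 than in every sham library, Vegfa, Car9, Egln1 and Egln3 overlap throughout, and Hoxb13 splits each group.

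Single detoxification and clock genes fell, 3 of 106 (2.83%) and 2 of 18 (11.1%), against 0.871% of all genes. The cytochrome P450 gene Cyp2d34, from a family of similar copies, ran from 69.5 to 192 TPM (median 120) against 216 to 530 TPM (median 324), at -1.44 ± 0.28 (adjusted p = 0.0122), and was the 1 of 23 in its list to fall (4 higher and 5 lower at an unadjusted p under 0.05, median -0.07). Gstm3, a glutathione transferase, fell by 0.77 ± 0.19 (1 of 31 conjugating enzymes, median 0.12), and Nr1i3, the xenobiotic receptor CAR, fell by 1.49 ± 0.34 from a median of 4.65 TPM to 0.973 TPM (1 of 23 efflux pumps, receptors and dehydrogenases, median 0.09). Of 18 clock genes 2 fell and 0 rose (2 higher and 3 lower at an unadjusted p under 0.05, median -0.07). Nr1d1, the repressor REV-ERB alpha, and the output factor Dbp fell by 1.39 ± 0.26 and 1.46 ± 0.33. Nr1d1 ran from 17.4 to 31.9 TPM against 33.4 to 100.2 TPM without overlap, and passed in all 28 alternatives. In vehicle against sham, with the same controls, Nr1d1 and Dbp stood at -1.72 and -1.77. The opposing factor Nfil3 and Per1 did not pass, at 1.29 ± 0.39 and 0.89 ± 0.28 (adjusted p of 0.105 and 0.115). The labels do not state the hour of collection. Of 17 genes of the unfolded protein and integrated stress response 16 were positive, with a median of 0.26 and 2 higher and 1 lower at an unadjusted p under 0.05. The 1 negative member, Ddit3, which encodes CHOP, was also the 1 that passed, and fell by 0.69 ± 0.17 with no overlap.

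Genes of the hypoxia response, the known output of prolyl hydroxylase inhibition, showed no call against sham. Of 26 targets of hypoxia-inducible factor 0 passed in limma (2 higher and 2 lower at an unadjusted p under 0.05), with a median of 0.08 against 0.21 for all genes. Vegfa (chromosome 17, 46016993 to 46032377), the angiogenic growth factor, ran from 37.1 to 90.9 TPM (median 43.9) against 35.8 to 57.4 TPM (median 49.8), at -0.01 ± 0.29. Car9, the hypoxic carbonic anhydrase, and Pdk1, which holds pyruvate out of the mitochondrion, stood at 0.23 ± 0.26 and -0.18 ± 0.28. The groups overlapped for all 3 genes, and their adjusted p lay between 0.586 and 0.991. Selenbp1, which breaks down methanethiol, had groups that did not overlap, from 248 to 803 TPM against 890 to 1495 TPM, at -0.87 ± 0.26 (adjusted p = 0.0963). Of 11 prolyl hydroxylase and subunit genes 0 passed (1 higher at an unadjusted p under 0.05), with a median of 0.13. Egln1, Egln2 and Egln3, which encode the enzymes, stood at 0.12 ± 0.18, 0.24 ± 0.12 and 0.13 ± 0.53, and the subunit genes Hif1a, Epas1 and Hif3a at -0.30 ± 0.58, 0.17 ± 0.16 and 0.70 ± 0.18 (adjusted p = 0.0634 for Hif3a). The signs of Egln1, Egln3 and Epas1 turned under median-ratio scaling, at -0.095, -0.093 and -0.050. Of 21 glycolysis genes 0 passed (1 higher and 1 lower at an unadjusted p under 0.05), with Hk2, the inducible hexokinase, at -1.16 ± 0.33 and groups apart (17.6 to 52.5 TPM against 56.5 to 98.2 TPM, adjusted p = 0.0896). In vehicle against sham, with the same controls, Vegfa, Car9 and Pdk1 stood at -0.52, -0.17 and -0.70. The median over all genes was -0.07 there, against 0.21 under ISM012-042. The 26 targets had a median of -0.20 in vehicle, with 0 higher and 3 lower, where 4.13% of all genes were lower. Between ISM012-042 and vehicle 0 genes passed in limma.

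**Figure D5:**
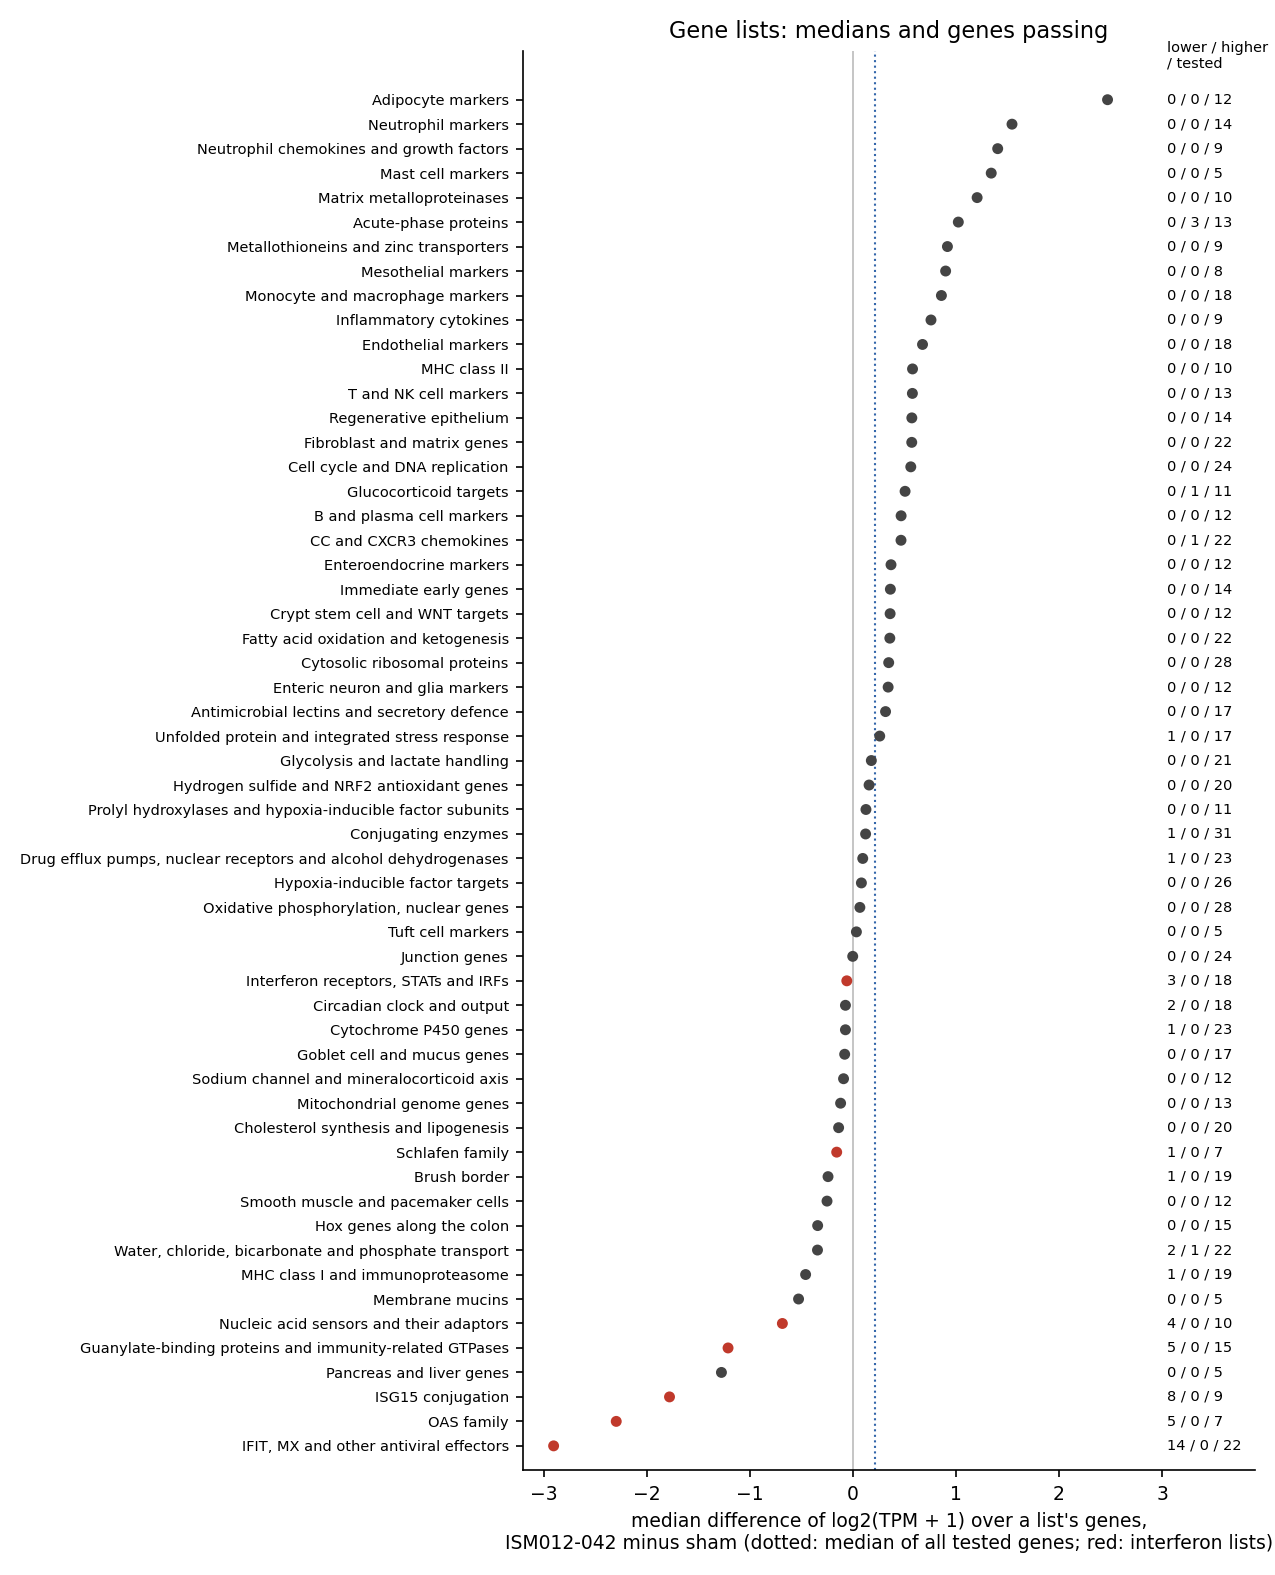
Each point is the median difference of log2(TPM + 1), ISM012-042 minus sham, over the tested genes of 1 of 56 lists, with the interferon lists in red and the median of all genes as a dotted line at 0.21. The columns at the right give lower, higher and tested genes; the IFIT and MX list is lowest at -2.91, and adipocyte markers hold the highest at 2.47 with 0 genes passing.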

How the data were processed

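RNA from mouse colon was measured by sequencing in 18 libraries, 6 each of sham, vehicle and ISM012-042, and grouped by the labels. Per the labels' protocols, tissue was homogenised in TRI Reagent, RNA was purified on RNeasy columns and cDNA was made with a FastKing kit. DRAGEN 4.0.3 and the mm10 build are named in the submitters' processing notes; the counting rule, strandedness and annotation are not stated in the labels. The authors deposited TPM values for 35976 gene symbols, which keep no depth. Genes with at least 1 TPM in at least 6 of the 18 libraries were tested (14129) on log2(TPM + 1), with a pseudocount of 1, in R 4.3.3 with limma 3.58.1: all 18 libraries in 1 fit without a block, empirical Bayes with trend and robust settings, Benjamini-Hochberg adjustment over all tested genes and a threshold of 0.05. The scripts were tested on simulated data.

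The members and the 56 gene lists (942 genes, 850 tested, 15 not in the table) were chosen with earlier results of these data known. Genes named in the text are the 12 passing genes of largest difference in each direction whose higher group averaged 5 TPM or more (predicted genes, receptor segments and mitochondrial genes left out), every passing list member, the 4 members of smallest p in each list, and some colitis, hypoxia, junction and position genes. Markers of the tissue, Ifitm1, Ifitm2, Ifitm3, Jak1, Tyk2, Ly6g, Cd177, Saa1, Saa2 and the other genes said so in the text were chosen after their values were seen. Some genes that meet the rule are not reported here. Promoters, coordinates and annotation came from RefSeq tables on GRCm38.p6. Single values were tested by an exact permutation test over the 924 regroupings of 12 libraries. Same-numbered libraries of sham and ISM012-042 did not deviate together in every pair, so the numbers were not taken as pairs. Alternatives covered pseudocount, filter, scaling, covariates, weights, libraries in the fit and leaving out each library.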

Additional observations from a re-analysis of the deposited data

Results flagged for a closer look

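Among 262 groups of 6 libraries examined, 14 held 1 library whose gap to its nearest neighbour was large against the range of its group (Dixon's criterion), where chance gives about 1 group in 20. Of these 7 lay in ISM012-042 replicate 2, 3 in ISM012-042 replicate 4, 2 in ISM012-042 replicate 1, 1 in ISM012-042 replicate 3 and 1 in sham replicate 4.

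In ISM012-042 replicate 2 the endothelial genes Cdh5 and Esam stood at 35.9 and 35.1 TPM, where the next library had 7.09 and 11 TPM. S100a9 stood at 3020 TPM against 86.2 TPM in the next library. The acute-phase gene Cp stood at 28.6 TPM against 9.64 TPM. Vegfa stood at 90.9 TPM against 47.9 TPM and Epas1 at 44.7 TPM against 32.3 TPM, while Selenbp1 was the lowest of its group at 248 TPM, below 596 TPM. This library thus held high values of genes of endothelium, neutrophils and the acute phase at the same time.

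In ISM012-042 replicate 4 the interferon-stimulated genes Irf7, Ddx60 and Apol9a were the highest of their group, at 123, 16 and 5.83 TPM against 74.3, 8.07 and 3.51 TPM in the next library. In ISM012-042 replicate 3 Uba7 stood at 27.4 TPM against 18.2 TPM. All but Ddx60 still lay below every sham library. In ISM012-042 replicate 1 C2cd4b was high at 65.1 TPM against 14.2 TPM, and Tmem140 was low at 9.52 TPM against 14 TPM. In sham replicate 4 Slc26a3 was high at 1890 TPM against 1030 TPM.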

How the results depend on the processing

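The higher and lower counts, 77 and 123 genes, stayed within 1.5 times of these values with a pseudocount of 0.1 or 5, a minimum of 5 TPM or plain empirical Bayes. The higher count was 50 with no filter on low values. They were 137 and 618 with median-ratio scaling, 257 and 546 with quantile normalization, 745 and 387 with the mitochondrial genes left out, 477 and 232 with only the ISM012-042 and sham libraries in the fit, and 2322 and 938 with array weights. With Hoxb13 as a covariate they were 1108 and 271, with the mitochondrial share 1213 and 538, and with Hoxb13 and median-ratio scaling 209 and 756. Leaving out 1 library gave 14 to 104 higher and 62 to 125 lower genes, and moved the difference in mitochondrial share between -4.15 and -0.207 percentage points. In 2 alternatives chosen after seeing the data, the libraries with log2 Hoxb13 above 5 gave 17 and 41, and leaving out ISM012-042 and vehicle replicate 2 gave 52 and 93. The cause of these shifts was not tested. With the replicate number as a block they were 38 and 71; the deviations of same-numbered libraries correlated between -0.371 and 0.342, and in no case was a library most like its own number. The interferon lists had 28 to 62 of 88 genes lower in every alternative but the Hoxb13 subset, with 2. Of 79 called genes that were refitted, 6 passed in all 28 alternatives (Rtp4, H2-Q1, Tmem140, Car4, Cyp2d34 and Nr1d1). Of 51 refitted genes that were not called, some of them not named in the text, 38 passed in at least 1. Some called genes near the threshold passed in few alternatives. Ifi44, Mx1 and Acot1 passed in 12 of 28, Apod in 11 of 28, Lypd8 in 10 of 28 and Gstm3 in 11 of 27. Among the named genes refitted under every alternative, which leave out Ifitm1, Ifitm2, Ifitm3, Ly6g, Cd177, Saa1 and Saa2, the signs that turned were those of hypoxia genes near 0: Egln1 at -0.095 (median-ratio), -0.034 (quantile), -0.063 (Hoxb13 with median-ratio), -0.007 to 0.200 leaving out 1 library (lowest without ISM012-042 replicate 2) and -0.007 also without vehicle replicate 2; Egln3 at -0.093, -0.014, -0.068 (array weights), -0.058 (mitochondrial share), -0.111 to 0.336 leaving out 1 library (negative without ISM012-042 replicate 2 or, at -0.040, sham replicate 1) and -0.111 without both replicates 2; Epas1 at -0.050 and -0.104 and Egln2 at -0.031 (median-ratio without or with Hoxb13); Vegfa at 0.110, Pdk1 at 0.024 and Hif1a at 0.175 (Hoxb13 covariate), and Vegfa also at -0.188 to 0.065 leaving out 1 library and 0.116 in the Hoxb13 subset. TPM keep no depth, so the precision of low values is unknown.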

Other observations

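Genes of cell division and protein synthesis had no call. Of all genes 77.1% were positive on this scale, with a median of 0.21 that median-ratio scaling brought to 0.02. All 24 tested genes of the cell cycle and DNA replication were positive under ISM012-042 against sham, with a median of 0.56, and 0 passed in limma (1 higher at an unadjusted p under 0.05). All 28 cytosolic ribosomal protein genes were positive, with a median of 0.35, and 0 passed (21 higher at an unadjusted p under 0.05). Of 9 metallothionein and zinc transporter genes 0 passed (5 higher and 1 lower at an unadjusted p under 0.05), with a median of 0.92, and of 10 matrix metalloproteinases 0 passed (3 higher), with a median of 1.20. Of 20 genes of cholesterol synthesis and lipogenesis 0 passed (1 higher and 1 lower), with a median of -0.14.

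Some genes outside the lists were chosen after their values had been seen. The sterol exporter genes Abcg8 and Abca1 moved in opposite directions: Abcg8, which works at the apical surface, fell by 1.42 and Abca1, which loads cholesterol onto lipoprotein particles, rose by 1.30 (adjusted p of 0.0332 and 0.0483, limma). Cyp2c69, a cytochrome P450 gene from a family of similar copies, fell by 1.37 with no overlap between groups (adjusted p = 0.00607). Kcnq1, a potassium channel gene, and Ucp2, a mitochondrial carrier gene, rose by 0.81 and 0.68, both with no overlap (adjusted p of 0.0324 and 0.0307). Under median-ratio scaling neither passed in limma (adjusted p of 0.102 and 0.168).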
